A study of Mus musculus with 10 samples.

Results

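Lung transcriptomes of mice with ovalbumin-induced asthma that had been treated with a plant extract (Herb, n = 4) were compared with those of control mice (Saline, n = 3), to describe what stayed different from the controls under treatment. These 7 libraries were selected by their sample labels out of 10 in the series. All were from lung tissue of female BALB/c mice, which by the study's methods were 8 weeks old when purchased. Saline mice had received saline only. Herb mice had been sensitized by intraperitoneal ovalbumin with alum and challenged with ovalbumin through the nose under isoflurane. They were given an ethanol extract of Descurainia sophia seeds by mouth at 200 mg/kg on 7 consecutive days. Dosing began after sensitization and before the first challenge. The remaining libraries came from mice that went through the ovalbumin protocol without the extract (OVA, n = 3), and their values are given beside those of Herb. No group used here received the extract without ovalbumin, so the share of the allergen and the share of the extract in a difference between Herb and Saline cannot be told apart from this comparison alone.

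In allergic airway inflammation, type 2 helper T cells and innate lymphoid cells release cytokines that act through the transcription factor STAT6 on the airway epithelium and on macrophages. The epithelium turns towards mucus secretion, macrophages and epithelial cells release chitinase-like and resistin-like proteins, and chemokines attract eosinophils. The gas-exchange surface that surrounds the airways consists of flat alveolar type 1 cells, surfactant-producing type 2 cells and a dense capillary network, and its transcripts make up much of the messenger RNA of a normal lung.

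The depth estimated from the lowest FPKM values (fragments per kilobase of transcript, normalised to library depth) was 14850000 to 21600000 fragments in the 7 libraries. Across genes, log2 values correlated with r from 0.889 to 0.903 among Saline libraries, from 0.811 to 0.852 among Herb libraries and from 0.752 to 0.842 between the groups. Before rescaling, the 75th percentile of the gene values was 9.20 to 9.28 FPKM in Saline, 5.79 to 7.43 FPKM in Herb and 3.68 to 4.58 FPKM in OVA. Markers of lung were high in every library, and markers of liver and thymus were near 0. Herb replicate 2 stood apart with 56.1 FPKM of Acta1, the actin of skeletal muscle, and 22.6 FPKM of the muscle creatine kinase Ckm, against at most 0.842 FPKM of either in any Saline library. The housekeeping gene Gapdh was listed at 0 in 9 of the 10 libraries, which is not plausible for that gene, and a value of exactly 0 is therefore described below only as listed at 0.

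Among the genes that rose, Retnla, Chil3 and Chil4 encode secreted proteins of the type 2 response whose promoters are textbook targets of STAT6. The 220 bases before the annotated start sites of these genes are shown for that reason, from RefSeq on GRCm38.p6, 5′ to 3′ on the strand of the gene. Capitals mark matches to TTCNNNNGAA or TTCNNNGAA, the palindromic letters read by STAT factors, which are the same on both strands. The Retnla window lies at chr16:48842389-48842608 on the plus strand, the Chil3 window at chr3:106167565-106167784 on the minus strand and the Chil4 window at chr3:106219480-106219699 on the minus strand.
Retnla: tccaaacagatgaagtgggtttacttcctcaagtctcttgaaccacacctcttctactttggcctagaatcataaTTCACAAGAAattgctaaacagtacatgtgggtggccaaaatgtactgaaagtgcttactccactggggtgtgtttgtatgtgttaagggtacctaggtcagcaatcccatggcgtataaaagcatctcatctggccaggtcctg
Chil3: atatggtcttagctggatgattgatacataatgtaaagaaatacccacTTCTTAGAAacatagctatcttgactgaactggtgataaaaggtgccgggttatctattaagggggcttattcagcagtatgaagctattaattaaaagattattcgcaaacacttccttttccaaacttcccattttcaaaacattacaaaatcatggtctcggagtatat
Chil4: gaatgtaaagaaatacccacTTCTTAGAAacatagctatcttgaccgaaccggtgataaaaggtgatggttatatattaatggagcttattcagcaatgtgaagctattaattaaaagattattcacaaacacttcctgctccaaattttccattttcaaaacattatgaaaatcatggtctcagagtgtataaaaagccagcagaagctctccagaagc
The match in Retnla began 145 bases before the start site and had the longer spacer. The matches in Chil3 and Chil4 began 172 and 200 bases before theirs and were the same letters, since these neighbouring promoters were identical at 174 of 191 aligned bases (91.1%). Of 32851 promoters of the same length in the table, 1667 (5.07%) held TTCNNNNGAA and 1986 (6.05%) held TTCNNNGAA. A match describes letters only. Because Chil3 and Chil4 are near copies, reads may have been divided between them by the estimation of transcript abundance, and their levels are uncertain to that extent.

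Of 11205 genes with a mean of at least 1 FPKM, 1758 (15.7%) differed between Herb and Saline at an adjusted p under 0.05 (limma, Benjamini-Hochberg over all genes tested). In Herb, 1185 of them (10.6% of genes tested) were higher and 573 (5.11%) lower. The counts of gene lists below stand beside these shares. The mean of the filter was taken over all 10 libraries. A gene near 0 in Saline therefore passed only through its OVA and Herb values, which favours a positive difference. A gene near 0 in OVA and Herb passed only through Saline, which favours a negative difference. At least a doubling on the log2 scale was reached by 188 of the genes that rose and 173 of those that fell. The same fit gave 4617 genes (41.2%) in OVA vs. Saline, of which 2695 (24.1%) were higher and 1922 (17.2%) lower, and 90 genes (0.803%) in Herb vs. OVA, namely 39 (0.348%) higher and 51 (0.455%) lower. Both comparisons with Saline contain the same 3 Saline libraries. Of the 1758 genes, 1598 were also called in OVA vs. Saline with the same sign, and 29 were called in Herb vs. OVA. Herb and Saline libraries did not overlap in 1749 of the 1758, so a lack of overlap adds little to a call.

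The number of genes rested on single libraries. It was 117 without Saline replicate 2, 529 without Saline replicate 1, 586 without Saline replicate 3, 514 without Herb replicate 3, 661 without Herb replicate 4 and 769 without Herb replicate 1. Without Herb replicate 2, the library with muscle transcripts, it was 1655. A total of 108 genes were called whichever of the 7 libraries was left out, 71 of them higher and 37 lower in Herb. Among the genes named below, these were Retnla, Saa3, Chil3, Ngp, Oas1a, Tpm2, Abcb1a, Acaa1b, Acvrl1, Myl12b, Rpl31, Psma6 and Cd163. Of the 87 called genes chosen by the rule for named genes, 75 lost the call without Saline replicate 2, though none of the 87 changed sign when a library was left out.

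The split between higher and lower genes depended on the scaling of the libraries. With the values as deposited, 372 of 2921 called genes were higher, and with the median of ratios 583 of 1854. The median difference of all genes was 0.09 on the log2 scale here, -0.27 as deposited, -0.08 with the median of ratios, -0.05 with a percentile over transcript rows and 0.00466 after quantile normalization. It also depended on the expression level: it was 0.17 in genes below 2 FPKM and -0.39 in genes of 20 to 50 FPKM. A set of 550 genes was called under all 5 scalings, 264 higher and 286 lower. The 87 called genes chosen by the rule for named genes all kept their sign under each scaling, but only 46 of them were called under all 5. Of the 550, 394 were also called when the assembled transcript models that stand beside a gene in the table were added to it, 203 higher and 191 lower. A model that stands between neighbouring genes was added to each of them, so such sums are not independent.

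**Figure D1:**
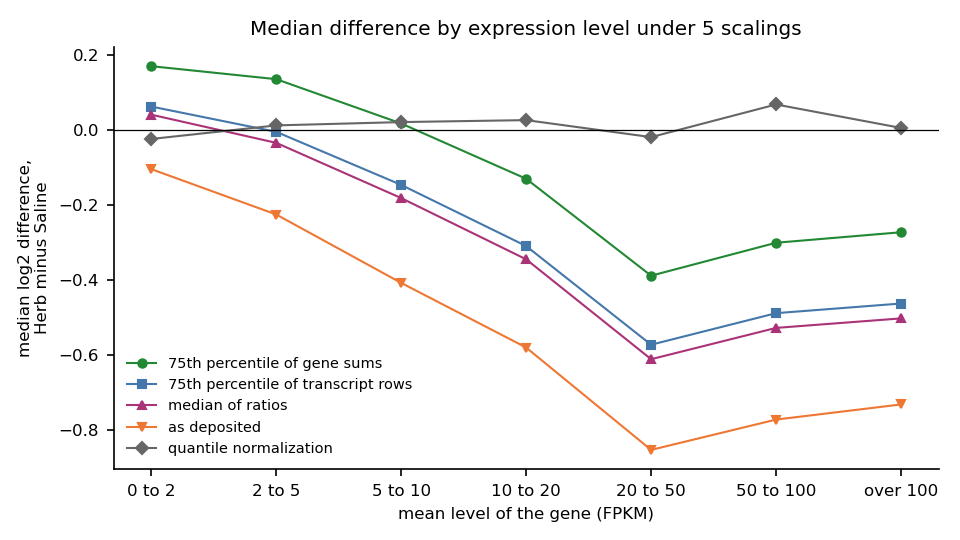
Median log2 difference (Herb minus Saline, y axis) of the genes tested in classes of mean expression (FPKM, x axis), with 1 line per scaling of the libraries. With 4 of the 5 scalings, genes of 20 to 50 FPKM lie lower than genes under 2 FPKM, and quantile normalization removes this slope.

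Chitinase-like and resistin-like proteins stood far above the controls. Of 7 tested members, 4 were higher in Herb (Retnla, Chil4, Chil3 and Chia1) and none lower, and the median difference was 2.07 on the log2 scale, beside 0.09 and a share of 10.6% higher over all genes. In OVA, 4 of the 7 were higher than in Saline, with a median of 1.78. Retnla and Chil4 passed the filter only through OVA and Herb, so their positive sign was favoured by it. Under the other scalings the Herb median lay between 1.91 and 2.20.

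Retnla (chromosome 16, 48842609 to 48844461) encodes a cysteine-rich protein secreted by alternatively activated macrophages and airway epithelium. It was listed at 0 in 2 Saline libraries and at 3.86 FPKM in the other, and it stood at 1919, 978, 3835 and 3706 FPKM in the Herb libraries. No Herb library came near the Saline range. The difference was 10.39 on the log2(FPKM + 1) scale (SE 0.80, adjusted p = 0.000776), and in OVA it was 10.42. The test of Herb against OVA gave a difference of -0.03 (adjusted p = 0.988).

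Chil3 (chromosome 3, 106147554 to 106167564), which encodes Ym1, the chitinase-like lectin of alveolar macrophages, was already abundant in the controls. It was at 59.95, 113 and 48.9 FPKM in Saline against 468, 274, 652 and 446 FPKM in Herb, a ratio of means of 6.22 (log2 difference 2.65, SE 0.44, adjusted p = 0.0133). All Herb libraries were above all Saline libraries. Its OVA libraries were at 121, 355 and 216 FPKM, and the log2 difference between Herb and OVA was 1.06 (adjusted p = 0.163). Chil4 (chromosome 3, 106201491 to 106219479), the epithelial Ym2, was listed at 0, 0.534 and 0 FPKM in Saline against 32.1, 15.7, 156 and 117 FPKM in Herb (log2 difference 5.61, SE 1.24, adjusted p = 0.0238). The Herb libraries spanned a wide range, but none overlapped with Saline.

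Among mucous genes of the airway, Clca1 and Pigr rose. They were the 2 called members of 12 tested, beside 10.6% higher over all genes. None was lower, and all 12 differences were positive with a median of 2.19. Members near 0 in Saline, such as Clca1, Muc5ac and Agr2, passed the filter only through OVA and Herb. The shared positive sign is therefore partly set by the filter. The OVA median was 2.69, with 5 members called. Clca1 (chromosome 3, 145004537 to 145032776), the secreted goblet cell protein that regulates a calcium-activated chloride channel, was listed at 0, 0.0376 and 0 FPKM in Saline against 94.9, 29.5, 281 and 586 FPKM in Herb (log2 difference 7.20, SE 1.32, adjusted p = 0.0153). Pigr, the receptor that carries IgA across the epithelium, was at 3.28, 7.995 and 5.49 FPKM in Saline against 29.0, 23.5, 54.5 and 54.9 FPKM in Herb, a ratio of means of 7.24 (adjusted p = 0.0156).

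The gel-forming mucins themselves did not pass the test. Muc5ac was listed at 0 in every Saline library and at 1.43, 0.174, 1.11 and 17.9 FPKM in Herb (adjusted p = 0.36). Muc5b was at 0.0999, 0.468 and 1.79 FPKM in Saline against 2.31, 2.49, 11.1 and 7.80 FPKM in Herb (adjusted p = 0.125). The Herb libraries of both genes were widely spread. With the assembled models beside them added, the differences were 3.73 (adjusted p = 0.0468) and 3.69 (adjusted p = 0.03). The added models reached 96.7 FPKM for Muc5ac and 147 FPKM for Muc5b in Herb, far above the genes themselves. Models between neighbouring genes count for each, so these results are not independent. Agr2, the disulfide isomerase needed for mucin folding, was at 0, 0.331 and 0.112 FPKM in Saline against 7.31, 1.53, 18.3 and 23.5 FPKM in Herb (log2 difference 3.13, SE 1.07, adjusted p = 0.0773).

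**Figure D2:**
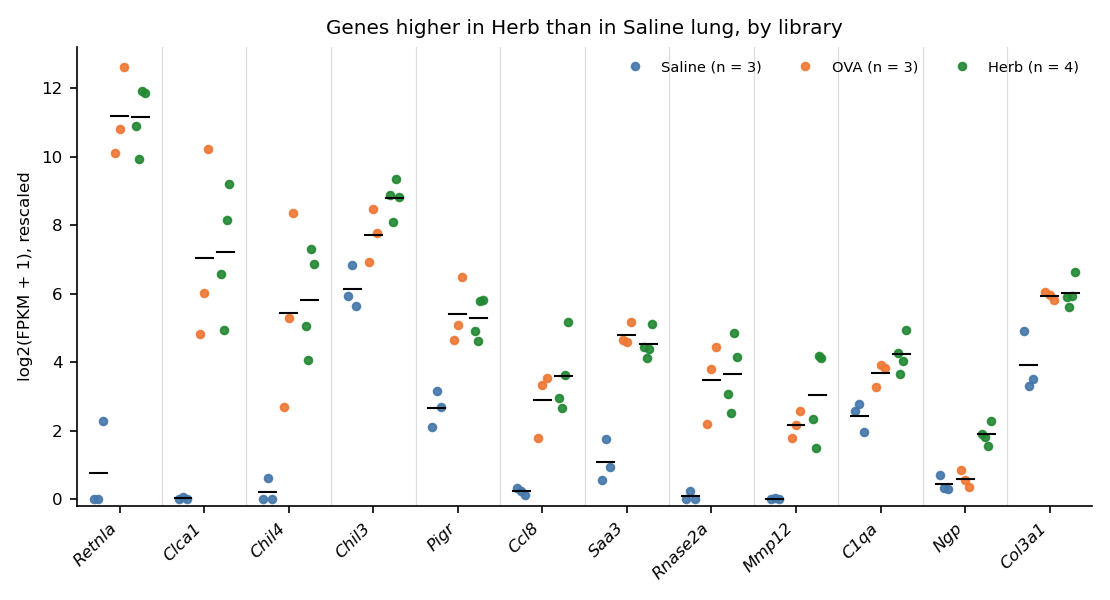
Rescaled values (log2(FPKM + 1), y axis) of 12 genes called higher in Herb than in Saline (x axis). Each point is 1 library and each bar a group mean. The Saline points of Clca1, Rnase2a and Mmp12 lie at or near 0, those of Retnla lie far below its Herb points, and the Ngp points of Herb lie above those of both other groups.

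Among chemokines, 5 of 15 tested were higher in Herb (Ccl8, Cxcl12, Ccl11, Ccl3 and Ccl22) and 1 lower (Ccl5), beside 10.6% and 5.11% over all genes. Under the other scalings, 3 to 4 of the 15 were higher. The median difference of the list was 0.73 in Herb and 0.46 in OVA. Ccl8, a ligand that recruits type 2 helper T cells in the mouse, was at 0.261, 0.188 and 0.0902 FPKM in Saline against 6.71, 5.33, 11.3 and 35.4 FPKM in Herb, 81.5 times the Saline mean (log2 difference 3.37, SE 0.61, adjusted p = 0.0148). Cxcl12, the stromal ligand that holds haematopoietic cells, was at 9.29, 5.79 and 7.98 FPKM in Saline and between 16.8 and 20.7 FPKM in all 4 Herb libraries (log2 difference 1.22, adjusted p = 0.0145). The difference in OVA was 0.58 (adjusted p = 0.0737), and that between Herb and OVA was 0.64 and not called either (adjusted p = 0.113). The Herb libraries agreed closely for this gene.

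The eotaxins, which draw eosinophils, were low. Ccl11 was at 0.469, 0.839 and 0.232 FPKM in Saline against 1.27, 1.17, 2.08 and 3.64 FPKM in Herb (log2 difference 0.96, adjusted p = 0.0475), and this call was lost under each of the 4 other scalings. Ccl24 was under the filter, with 0.139 to 0.212 FPKM in Saline and 0.358 to 2.04 FPKM in Herb. Ccl5, a ligand for T cells and eosinophils, fell from 4.61 to 7.49 FPKM in Saline to 1.13 to 3.79 FPKM in Herb (log2 difference -1.13, adjusted p = 0.0368), but with the assembled models beside it the difference was 0.60 (adjusted p = 0.148).

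Rnase2a, an eosinophil-associated ribonuclease, was listed at 0, 0.184 and 0 FPKM in Saline against 7.39, 4.65, 27.6 and 16.9 FPKM in Herb (log2 difference 3.56, SE 0.63, adjusted p = 0.0145). Ear1, a near relative of the same family, moved the other way, from 15.4, 18.1 and 8.77 FPKM in Saline to 4.99, 5.46, 2.79 and 1.88 FPKM in Herb (log2 difference -1.68, adjusted p = 0.0312). These genes belong to a multigene family, so the division of reads between its members is uncertain. Of 4 tested members of the eosinophil list, Ear1 was the only one called, beside 5.11% lower over all genes. Under the other scalings 0 to 3 were lower. Rnase2a is not in this list, so its rise does not enter that count. Which cells the Ear1 and Rnase2a transcripts came from was not tested. The granule protein gene Prg2, under the filter, was listed at 0 in all Saline libraries and at 0.888, 0, 0.804 and 2.11 FPKM in Herb. In bulk tissue, a change in the number of cells of a type cannot be told apart from a change in RNA per cell.

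Of 9 tested genes of type 2 cytokines and their receptors, 3 were higher and none lower, beside 10.6% higher over all genes. Yet 5 of the 9 differences were negative and the median was -0.12. Alox15, the lipoxygenase induced by type 2 cytokines, had a mean of 0.105 ± 0.0848 FPKM in Saline (SD, n = 3) against 1.95 ± 0.938 FPKM in Herb (SD, n = 4; adjusted p = 0.0161). Il1rl1, the receptor for interleukin-33, went from 0.848 ± 0.226 to 2.08 ± 0.393 FPKM (adjusted p = 0.0181). Crlf2, a subunit of the receptor for thymic stromal lymphopoietin, went from 1.28 ± 0.740 to 3.57 ± 1.19 FPKM (adjusted p = 0.0349). The call of Crlf2 was lost under each of the 4 other scalings. With the assembled models beside them, Alox15 and Crlf2 were not called (adjusted p = 0.0654 and 0.0631). Arg1, the arginase of alternatively activated macrophages, was at 0, 0.147 and 0.123 FPKM in Saline against 2.24, 1.52, 15.4 and 25.1 FPKM in Herb, which did not pass the test (adjusted p = 0.0738).

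Macrophage genes were higher in 6 of 19 tested members (Mmp12, C1qa, Itgax, C1qc, Cd163 and Msr1) and lower in none, while 10.6% of all genes were higher. The median difference of the list was 0.80, beside 0.43 in OVA. Mmp12, the macrophage elastase, was listed at 0, 0.0128 and 0 FPKM in Saline against 4.08, 1.82, 17.2 and 16.3 FPKM in Herb (log2 difference 3.03, SE 0.61, adjusted p = 0.0191). C1qa, a chain of complement C1q made by tissue macrophages, was at 4.96, 5.83 and 2.88 FPKM in Saline against 18.4, 11.7, 15.2 and 29.6 FPKM in Herb, 4.11 times as high (adjusted p = 0.0145). Itgax, the integrin CD11c of alveolar macrophages and dendritic cells, was 3.94 times as high in Herb (adjusted p = 0.025). The summed FPKM of the whole list did not separate the groups, at 940.3 to 1082 in Saline and 684 to 1019 in Herb.

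Saa3, an acute-phase apolipoprotein of macrophages and epithelium, was at 0.458, 2.34 and 0.908 FPKM in Saline against 20.9, 16.3, 20.04 and 33.3 FPKM in Herb (log2 difference 3.44, SE 0.32, adjusted p = 0.0026). The Herb libraries were tight, and OVA was at a difference of 3.73 from Saline. Among 10 tested neutrophil genes, 2 were higher and none lower, beside 10.6% higher over all genes. The median of the list, 0.28, turned to -0.11 with the values as deposited. Ngp, a granule protein of developing neutrophils, was at 0.616, 0.259 and 0.223 FPKM in Saline against 2.77, 2.51, 1.95 and 3.89 FPKM in Herb (log2 difference 1.45, SE 0.20, adjusted p = 0.0118). It was also higher in Herb than in OVA, where it stood at 0.792, 0.463 and 0.283 FPKM (log2 difference 1.31, adjusted p = 0.0329).

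Ltf, the lactoferrin of secondary granules and glandular epithelium, rose from 0.131, 0.411 and 0.685 FPKM in Saline to 7.12, 3.68, 11.1 and 25.8 FPKM in Herb (adjusted p = 0.0345), and with the assembled models beside it the call was lost (adjusted p = 0.0896). The calprotectin genes of mature neutrophils were not called. S100a8 was at 20.5, 5.26 and 36.5 FPKM in Saline against 16.3, 34.6, 9.29 and 16.8 FPKM in Herb (adjusted p = 0.93), with overlapping groups. S100a9 was listed at 0, 288 and 90.6 FPKM in Saline against 0, 51.9, 0 and 0 FPKM in Herb (adjusted p = 0.268). With the assembled models beside it, S100a9 stood at 40.6 to 401 FPKM in Saline and 19.3 to 73.3 FPKM in Herb (log2 difference -1.87, adjusted p = 0.0605). The values listed at 0 make its annotated level uncertain.

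Interferon-stimulated genes were higher in 5 of 16 tested members (Mx1, Oas1a, Oas3, Ifi44 and Usp18) and lower in none, beside 10.6% higher over all genes. Their median difference was 0.42 in Herb and 0.03 in OVA. In OVA, 3 members were called higher and 2 lower, and 1 member was called higher in Herb than in OVA. The differences from Saline in OVA were 2.05 for Mx1, 1.48 for Oas1a and 0.49 for Oas3, beside 1.48, 1.31 and 0.90 in Herb. None of these named genes was called in Herb vs. OVA (adjusted p = 0.218, 0.587 and 0.181). Under the other scalings 2 to 3 members were higher and at most 1 lower, and the median lay between 0.018 and 0.33. Oas1a, an oligoadenylate synthetase, was at 1.03, 0.926 and 1.14 FPKM in Saline against 4.54, 3.19, 4.43 and 4.06 FPKM in Herb (log2 difference 1.31, SE 0.18, adjusted p = 0.0118). Mx1, an antiviral GTPase, had 0.179 ± 0.130 FPKM in Saline (SD, n = 3) against 2.34 ± 0.739 FPKM in Herb (SD, n = 4; adjusted p = 0.0153). Oas3 was 3.63 times as high in Herb (adjusted p = 0.0183). In antigen presentation, 2 of 9 tested genes were higher (1 to 2 under the other scalings), namely Ciita, the master activator of MHC class II genes (log2 difference 1.26, adjusted p = 0.0368), and Cd80, a costimulatory ligand (0.83, adjusted p = 0.017).

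No call fell among 4 tested T cell genes or 14 tested genes of B and plasma cells, whose median differences were 0.11 and -0.05. At an unadjusted p under 0.05, limma gave 0 of the T cell genes and 2 of the B and plasma cell genes, and robust moderation gave no call in either list. Gata2, a factor of mast cells and endothelium, was the 1 called gene of 3 tested in the mast cell list, and it was lower (log2 difference -1.07, adjusted p = 0.033), but 0.34 with the assembled models beside it (adjusted p = 0.182).

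Of 22 tested cell cycle genes, 12 were higher, beside 10.6% of all genes, and 2 were lower, with a median difference of 0.64 in Herb and 0.70 in OVA. The other scalings gave 4 to 7 higher and 1 to 3 lower. Mki67, which encodes the Ki-67 antigen of cycling cells, was at 1.99, 1.65 and 1.40 FPKM in Saline against 5.11, 4.03, 4.89 and 6.85 FPKM in Herb, 3.11 times as high (log2 difference 1.203, SE 0.20, adjusted p = 0.0133). Its call was lost with the assembled models beside it (adjusted p = 0.177). Birc5, the mitotic protein survivin, was 4.92 times as high (adjusted p = 0.0194) and Top2a, topoisomerase II alpha, 3.55 times as high (adjusted p = 0.0471), and the call of Top2a was lost under each of the 4 other scalings. The 2 lower genes were the replication factors Pcna and Mcm4.

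Of 60 tested replication-dependent histone genes, 8 were higher and 4 lower, which is near the 10.6% and 5.11% over all genes. Only 3 were higher under each of the other scalings. The linker histones Hist1h1b (log2 difference 1.51, adjusted p = 0.0271) and Hist1h1d (1.22, adjusted p = 0.0147) rose, and Hist1h1d was not called with the assembled models beside it (0.56, adjusted p = 0.0539). Hist2h4, a core histone H4 gene, fell from 1.88, 8.51 and 8.11 FPKM in Saline to 0.824, 1.07, 1.46 and 1.28 FPKM in Herb (adjusted p = 0.0291), while OVA stood at 6.31 to 7.06 FPKM. The histone genes are near copies of each other, and their messages lack a poly(A) tail, so values from libraries selected for poly(A) RNA are uncertain.

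Of 12 tested smooth muscle genes, 5 were higher (Acta2, Tpm2, Actg2, Tagln and Lmod1) and none lower, beside 10.6% higher over all genes. Under the other scalings 1 to 3 were higher and at most 1 lower, and Acta2 and Tpm2 lost the call with the values as deposited. Acta2, the smooth muscle actin, was at 9.56, 9.06 and 5.06 FPKM in Saline against 14.9, 17.1, 16.9 and 25.2 FPKM in Herb (log2 difference 1.15, SE 0.23, adjusted p = 0.0183). Tpm2, a tropomyosin, was 2.29 times as high (adjusted p = 0.0156), but with the assembled models beside it the difference was -0.15 (adjusted p = 0.663). Actg2, the enteric smooth muscle actin, was 2.49 times as high (adjusted p = 0.031), and this call was lost under the 4 other scalings.

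Of 28 tested collagens and matrix genes, 7 were higher and 2 lower, beside 10.6% and 5.11% over all genes. Under the other scalings 5 were higher and 0 to 3 lower. Col3a1, the fibrillar collagen of distensible tissue, was at 29.2, 8.79 and 10.4 FPKM in Saline against 58.3, 48.2, 60.5 and 98.8 FPKM in Herb, 4.12 times as high (log2 difference 2.11, SE 0.38, adjusted p = 0.0147). Col6a1, a microfibrillar collagen, was listed at 0, 8.50 and 7.86 FPKM in Saline against 17.3 to 26.8 FPKM in Herb (adjusted p = 0.0489). Col1a1 was at 13.4, 5.35 and 6.35 FPKM in Saline against 17.1, 13.1, 17.9 and 31.3 FPKM in Herb (adjusted p = 0.0428), with 1 Herb library inside the Saline range. The calls of Col1a1 and Col6a1 were lost under 3 and 4 of the other scalings. Dcn, the small proteoglycan decorin of fibroblasts, went the other way, from 17.2, 34.8 and 10.5 FPKM to 3.42, 9.17, 1.54 and 3.96 FPKM (log2 difference -2.002, SE 0.54, adjusted p = 0.0396).

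Ciliated cell genes were called in 2 of 19 tested members, both higher, a share like the 10.6% over all genes. Foxj1, the factor that drives motile cilia, was at 1.86, 4.60 and 2.96 FPKM in Saline against 8.46, 7.08, 15.3 and 12.6 FPKM in Herb (log2 difference 1.51, adjusted p = 0.0324), and the call was narrowly lost with the assembled models beside it (adjusted p = 0.0518). Ccno, a cyclin of centriole multiplication in the same cells, was at 0.306 to 0.429 FPKM in Saline and 1.51 to 4.33 FPKM in Herb (adjusted p = 0.0197). The OVA libraries had 7 called members, with a median difference of 0.94 beside 0.48 in Herb.

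**Figure D3:**
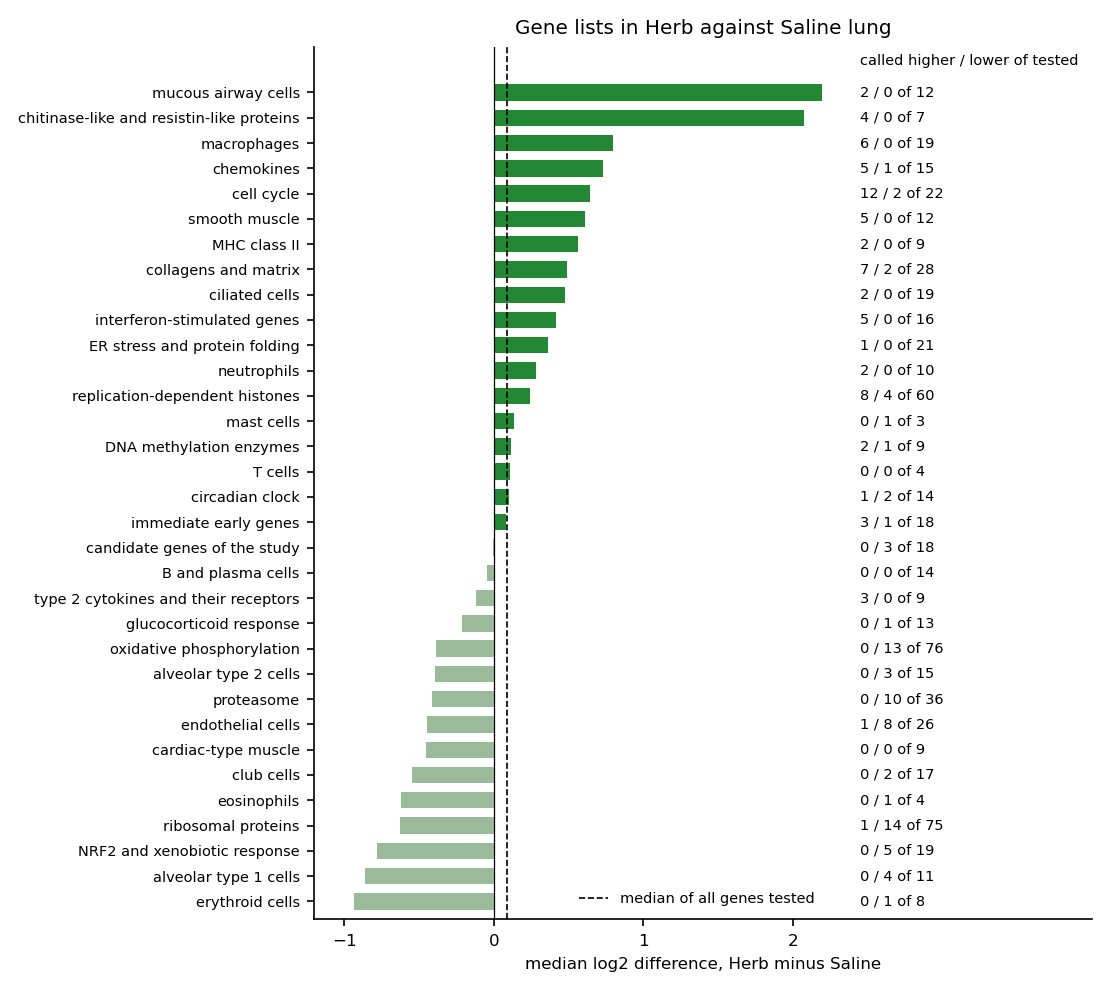
Median log2 difference (Herb minus Saline, x axis) of the tested members of 33 gene lists (y axis), with the number of members called higher and lower at the right. The dashed line marks the median of all genes tested, 0.09. The mucous and the chitinase-like and resistin-like lists have medians above 2, and the erythroid and alveolar type 1 lists have medians below -0.80.

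Among the genes that fell were genes of the gas-exchange surface. In the alveolar type 1 list, 4 of 11 tested members were lower in Herb (Cav1, Cav2, Hopx and Pdpn), none was higher and all 11 differences were negative, while 5.11% of all genes were lower. The median was -0.86 in Herb. Under the other scalings it lay between -1.34 and -0.72, with 2 to 7 members lower. In OVA it was -1.87, with 8 members lower. The summed FPKM of the list was 695 to 816 in Saline and 274 to 499 in Herb. Its members had a median level of 22.9 FPKM. Of all 312 genes of 20 to 50 FPKM, 69 were lower, with a median difference of -0.39. The part of expression level in the falls of this list and of the cell lists that follow was not tested.

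Cav1, the scaffold protein of caveolae in type 1 and endothelial cells, was at 44.9, 55.2 and 44.3 FPKM in Saline against 15.2, 16.2, 10.4 and 9.72 FPKM in Herb. It fell by 1.85 on the log2 scale (SE 0.29, adjusted p = 0.0124), beside 2.09 in OVA. Its partner Cav2 was at 59.6, 74.4 and 61.7 FPKM in Saline against 23.1, 29.5, 16.4 and 15.9 FPKM in Herb (log2 difference -1.61, SE 0.28, adjusted p = 0.0142). In neither gene did a Herb library reach the lowest Saline library. Hopx, a homeodomain-only protein of type 1 cells, was at 112, 145 and 107 FPKM in Saline against 63.4, 60.6, 39.1 and 35.6 FPKM in Herb (log2 difference -1.30, adjusted p = 0.0228). Ager, the receptor that is most abundant on type 1 cells, was at 294, 234 and 232 FPKM in Saline against 185, 188, 102 and 119 FPKM in Herb, without overlap but short of the threshold (adjusted p = 0.232).

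Of 15 tested genes of surfactant-producing type 2 cells, 3 fell (Sftpb, Sftpc and Napsa) and none rose, beside 5.11% lower over all genes. Under the other scalings 2 to 7 members fell. The median difference of the list was -0.39 in Herb and -0.74 in OVA. Its median level was 20.6 FPKM, and of all 312 genes of 20 to 50 FPKM, 69 were lower, with the same median of -0.39. Sftpc (chromosome 14, 70520941 to 70524081), which encodes surfactant protein C, was at 2211, 2080.4 and 1632 FPKM in Saline against 1037, 1085, 620.0 and 714 FPKM in Herb (log2 difference -1.22, SE 0.30, adjusted p = 0.0307). Sftpb was at 32.9, 43.8 and 32.6 FPKM in Saline against 15.7, 17.1, 8.98 and 10.5 FPKM in Herb (log2 difference -1.44, SE 0.26, adjusted p = 0.0148). Napsa, the protease that matures surfactant protein B, fell by 0.77 on the log2 scale (adjusted p = 0.0427). The Saline libraries lay above the Herb libraries in all these genes.

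Of 17 tested club cell genes, 2 were lower and none higher, beside 5.11% lower over all genes, and under the other scalings 0 to 8 were lower. The list had a median level of 61.2 FPKM, and of all 74 genes of 50 to 100 FPKM, 12 were lower. Cyp4b1, a cytochrome P450 of club cells, was at 112, 162 and 124 FPKM in Saline against 46.2, 53.8, 31.1 and 20.4 FPKM in Herb (log2 difference -1.85, SE 0.46, adjusted p = 0.0324). Gsta3, a glutathione transferase, went from 33.8, 48.2 and 38.9 FPKM to 18.0, 20.1, 13.5 and 11.0 FPKM (adjusted p = 0.0222). Scgb1a1, the club cell secretoglobin and the marker of that cell type, was at 8748, 15638 and 11848 FPKM in Saline against 7756, 10184, 8470 and 8249 FPKM in Herb, which overlapped (log2 difference -0.45, SE 0.31, adjusted p = 0.344).

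Endothelial genes were lower in 8 of 26 tested members (Acvrl1, Tmem100, Bmpr2, Car4, Cdh5, Ednrb, Emcn and Kdr), beside 5.11% lower over all genes, and Nos3 was higher. The other scalings gave 2 to 11 lower members. The median difference was -0.44 in Herb and -0.96 in OVA, where 13 were lower. Bmpr2, the type II receptor for bone morphogenetic proteins, was at 88.6, 97.4 and 94.4 FPKM in Saline against 33.6, 57.7, 34.5 and 28.4 FPKM in Herb (log2 difference -1.31, SE 0.33, adjusted p = 0.0345). Tmem100, a membrane protein induced by that pathway in capillaries, was at 35.2, 39.4 and 35.1 FPKM in Saline against 12.7, 22.8, 8.46 and 9.28 FPKM in Herb (log2 difference -1.49, adjusted p = 0.0435). The differences between Herb and OVA were 1.13 and 1.80 and did not pass the test (adjusted p = 0.0878 and 0.07). With the assembled models beside it, Tmem100 was not called in Herb vs. Saline (adjusted p = 0.0659).

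Both a transporter and a catabolic enzyme of prostaglandins fell. Slco2a1, the transporter that takes prostaglandins into cells, was at 42.3, 31.0 and 39.7 FPKM in Saline against 4.52, 2.97, 1.73 and 9.39 FPKM in Herb (log2 difference -2.94, SE 0.54, adjusted p = 0.0153). With the assembled models beside it the difference shrank to -0.70 (adjusted p = 0.0388). Hpgd (chromosome 8, 56294552 to 56321046), the dehydrogenase that inactivates prostaglandins, was at 82.2, 118 and 78.4 FPKM in Saline against 22.9, 24.0, 7.002 and 8.87 FPKM in Herb (log2 difference -2.65, SE 0.53, adjusted p = 0.0184). Its difference in OVA was -4.09, and the difference between Herb and OVA was 1.45 (adjusted p = 0.13).

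**Figure D4:**
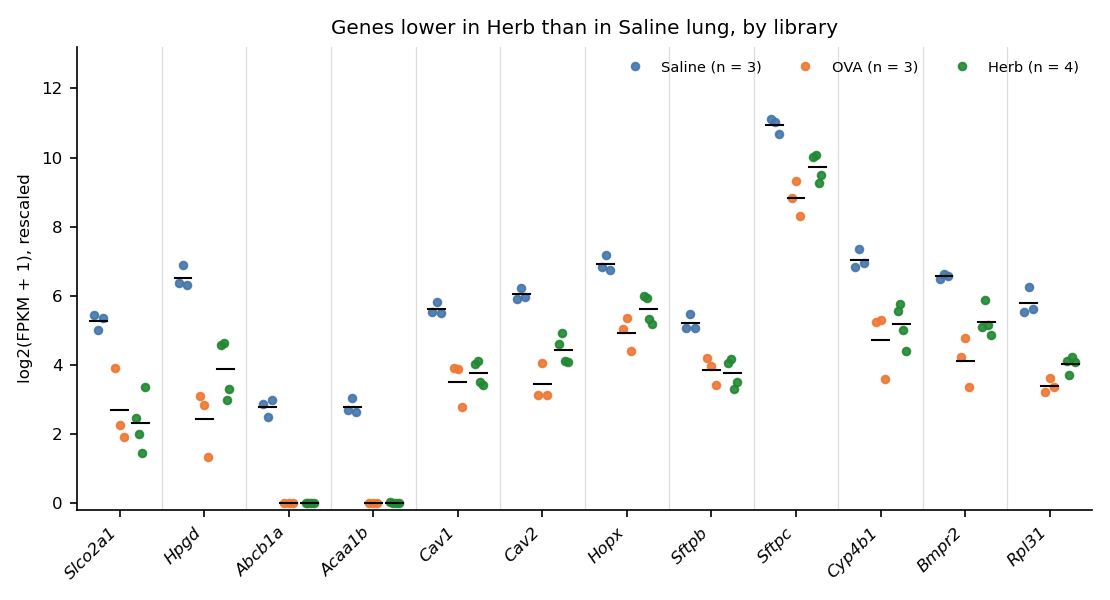
Rescaled values (log2(FPKM + 1), y axis) of 12 genes called lower in Herb than in Saline (x axis). Each point is 1 library and each bar a group mean. Every Herb point lies below every Saline point of the same gene.

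Several of the sharpest falls were genes listed at or near 0 in all libraries that had received ovalbumin. Acvrl1, the endothelial receptor ALK1, was at 28.7, 17.0 and 24.3 FPKM in Saline against 0.105, 0.0224, 0 and 0.0132 FPKM in Herb (log2 difference -4.53, SE 0.16, adjusted p = 4.92e-06). The 11 assembled models that stand beside it in the table summed to 9.32 to 13.0 FPKM in Saline and 33.4 to 38.4 FPKM in Herb, and with them added the difference was -0.20 (adjusted p = 0.393). The fall of the annotated rows of Acvrl1 is therefore not a fall of the sum over its neighbourhood. Slmap, a sarcolemmal membrane protein, likewise lost its call with its neighbouring models (from -2.44, adjusted p = 0.0201, to -0.38, adjusted p = 0.0645).

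Abcb1a, a P-glycoprotein of vessel walls, was at 6.34, 4.62 and 6.87 FPKM in Saline and listed at 0 in all Herb and OVA libraries (adjusted p = 4.21e-05), and it stayed lower with neighbouring models (-0.89, adjusted p = 0.00726). Acaa1b, a peroxisomal thiolase, was at 5.54, 7.20 and 5.20 FPKM in Saline against no more than 0.0304 FPKM in Herb (adjusted p = 3.84e-05), and with neighbouring models the difference was -1.53 (adjusted p = 0.00341). Both are near copies of a paralogous gene, and the division of reads between copies is uncertain. Taok1, a kinase of stress signalling, went from 12.6 to 16.2 FPKM to 0 to 7.38 FPKM (adjusted p = 0.045), with a difference of -0.43 with neighbouring models (adjusted p = 0.0457). Myl12b, a regulatory light chain of non-muscle myosin, went from 75.2 to 92.3 FPKM to 2.56 to 14.1 FPKM (log2 difference -3.14, adjusted p = 0.0118), and with neighbouring models the sign turned to 1.41 (adjusted p = 0.0243).

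While 5.11% of all genes were lower, ribosomal protein genes were lower in 14 of 75 tested members and higher in 1 (Rps2). Their median difference was -0.62 in Herb and -1.31 in OVA. Oxidative phosphorylation genes were lower in 13 of 76, with a median of -0.39, and proteasome genes in 10 of 36, with a median of -0.41, and neither list had a higher member. These counts depended on the scaling: under the other scalings, 8 to 36 ribosomal, 2 to 42 oxidative phosphorylation and 3 to 22 proteasome genes were lower. The median of the ribosomal list lay between -1.08 and -0.33. Rpl31 was at 44.9, 75.4 and 48.3 FPKM in Saline against 16.5, 12.2, 17.8 and 15.9 FPKM in Herb (log2 difference -1.76, SE 0.20, adjusted p = 0.00832). These lists hold abundant and short transcripts: their median levels were 37.3, 12.4 and 9.52 FPKM, and the median transcript lengths of the ribosomal and oxidative phosphorylation genes were 835 and 745 bases, beside 2910 bases over all genes tested. Across all genes, the median difference was -0.13 at 10 to 20 FPKM and -0.39 at 20 to 50 FPKM, and it was 0.01 in transcripts under 1000 bases and 0.10 in those over 4000 bases. The part of level and length in the fall of these lists was not tested.

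Rps29 fell from 180, 456 and 198 FPKM in Saline to 65.6, 72.4, 49.8 and 84.8 FPKM in Herb (adjusted p = 0.0157). Its call was lost when the far more abundant models beside it were added (adjusted p = 0.444). Those models summed to 78266 to 88555 FPKM in Saline and 98424 to 175397 FPKM in Herb. The summed value hardly depends on Rps29 and says little about it. Rpl15 was low throughout (log2 difference -1.72, adjusted p = 0.0242) and was not called with neighbouring models (adjusted p = 0.0585). In the respiratory chain, Cox6a2 (-1.26, adjusted p = 0.0341), Cox7a2 (-1.21, adjusted p = 0.026) and Uqcrb (-1.18, adjusted p = 0.0222) fell. Psma6, a subunit of the 20S proteasome core, was at 22.0, 31.0 and 23.1 FPKM in Saline against 12.2, 13.1, 11.8 and 14.1 FPKM in Herb (log2 difference -0.92, SE 0.14, adjusted p = 0.0124). Psma2 (-0.90, adjusted p = 0.0228) and Psmb3 (-0.83, adjusted p = 0.0342) moved with it.

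Of 19 tested genes of the NRF2 and xenobiotic response, 5 were lower (Gstm1, Gstm2, Nfe2l2, Cat and Gstp1) and none higher, beside 5.11% lower over all genes. The median difference of the list was -0.78 in Herb and -0.68 in OVA. With the other scalings, 2 to 12 were lower. Nfe2l2, which encodes the transcription factor NRF2 itself, was at 18.1, 20.5 and 17.6 FPKM in Saline against 12.8, 5.88, 11.6 and 9.96 FPKM in Herb (log2 difference -0.88, SE 0.22, adjusted p = 0.0317). The glutathione transferases Gstm1 and Gstm2 had 2.07 and 2.124 times as much in Saline (adjusted p = 0.0354 and 0.0207). They belong to a family of similar sequences.

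Of 8 tested erythroid genes, 1 was called, and it was lower (Bpgm), beside 5.11% lower over all genes. The median difference of the list was -0.94 in Herb and -1.97 in OVA. Hba-a2, an alpha globin, was at 2572, 2165 and 2565 FPKM in Saline against 621, 699, 644 and 724 FPKM in Herb, 3.62 times as high in Saline. The groups were far apart, but the OVA libraries, at 0.924, 379 and 44.0 FPKM, enlarge the shared estimate of the spread, and the gene was not called (adjusted p = 0.388). Bpgm, the enzyme that makes the red cell regulator of haemoglobin, fell by 0.58 on the log2 scale (adjusted p = 0.0359), and its call was lost with neighbouring models (adjusted p = 0.721). How much blood each lung held is not recorded in the labels, and its part in the other differences was not tested.

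Immediate early genes were higher in 3 of 18 (Jund 0.75, adjusted p = 0.0191; Ier2 0.62, adjusted p = 0.0235; and Myc) and lower in 1 (Ier3 -0.89, adjusted p = 0.0421; -0.39 with neighbouring models, adjusted p = 0.219). Of 13 glucocorticoid-responsive genes, Sgk1, a kinase of ion transport, was lower (-1.03, adjusted p = 0.0377), but not with neighbouring models (-0.45, adjusted p = 0.104). Of 14 circadian clock genes, Cry1 (-0.79, adjusted p = 0.019) and Clock (-0.51, adjusted p = 0.038) were lower, and the repressor Nfil3 was higher (0.49, adjusted p = 0.0385). Of 21 genes of ER stress and protein folding, the disulfide isomerase Pdia6 was higher (0.61, adjusted p = 0.0494). Among 9 DNA methylation genes, the maintenance methyltransferase Dnmt1 (0.55, adjusted p = 0.0339) and the glycosylase Mbd4 (0.40, adjusted p = 0.0387) were higher and the reader Mbd2 lower (-0.50, adjusted p = 0.0428). None of 9 cardiac-type muscle genes was called by limma with or without robust moderation, and 3 had an unadjusted p under 0.05. The calls of Dnmt1, Mbd4 and Nfil3 were lost under each of the 4 other scalings, those of Ier2 and Pdia6 under all but quantile normalization, and that of Jund with the values as deposited. With neighbouring models Dnmt1, Mbd4 and Pdia6 were not called (adjusted p = 0.0747, 0.0795 and 0.0858). Each of these lists had at most 4 called members, and over all genes tested 15.7% were called.

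Rn45s, the precursor of the ribosomal RNAs, was at 949, 923 and 826 FPKM in Saline against 4606, 2765, 7195 and 6898 FPKM in Herb, 5.96 times as high (log2 difference 2.48, SE 0.35, adjusted p = 0.0118). OVA stood higher still, at 17642, 13898 and 20579 FPKM, and the difference between Herb and OVA was -1.77 (adjusted p = 0.0593). Mir6236 was at 54.9, 57.7 and 24.9 FPKM in Saline against 277, 146, 685 and 758 FPKM in Herb (log2 difference 3.12, SE 0.62, adjusted p = 0.0182), and at 1618 to 4175 FPKM in OVA. Herb replicate 2 had the lowest Herb value of both. RNA that is not messenger RNA and takes more fragments in a library lowers the FPKM of all other transcripts, and the part of this in single differences was not tested.

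The study had put forward 18 candidate genes from these samples, so their direction here is no independent evidence. Of the 18, 3 were lower in Herb than in Saline (2 to 5 under the other scalings) and none higher, beside 5.11% lower over all genes. The median difference of the 18 was -0.01 in Herb and -0.69 in OVA. Hopx is described above. Pcmtd1, a methyltransferase domain protein, was at 10.1, 10.8 and 10.04 FPKM in Saline against 0.469, 4.69, 3.70 and 0.325 FPKM in Herb (log2 difference -2.07, SE 0.50, adjusted p = 0.0291). The Herb libraries fell into a low pair and a higher pair. Gpr155 fell by 0.61 on the log2 scale (adjusted p = 0.0153), and this call was lost with neighbouring models (adjusted p = 0.881).

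The growth factor gene Vegfa was at 11.3, 10.6 and 8.86 FPKM in Saline against 23.6, 17.0, 2.95 and 1.62 FPKM in Herb (adjusted p = 0.709), with Herb libraries on both sides of the controls. Kit, the receptor for stem cell factor, was at 5.24, 5.31 and 5.40 FPKM in Saline against 3.88, 14.2, 4.17 and 5.001 FPKM in Herb (adjusted p = 0.839). The high Kit value came from Herb replicate 2, and without that library the difference was -0.25 instead of 0.13. Errfi1, a feedback inhibitor of the epidermal growth factor receptor, was at 24.5, 39.6 and 29.3 FPKM in Saline against 20.8, 23.2, 11.9 and 7.42 FPKM in Herb, without overlap but not called (log2 difference -1.03, SE 0.44, adjusted p = 0.136). Its differences of -2.36 in OVA against Saline and 1.33 in Herb against OVA (adjusted p = 0.106) stand on either side of that value.

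**Figure D5:**
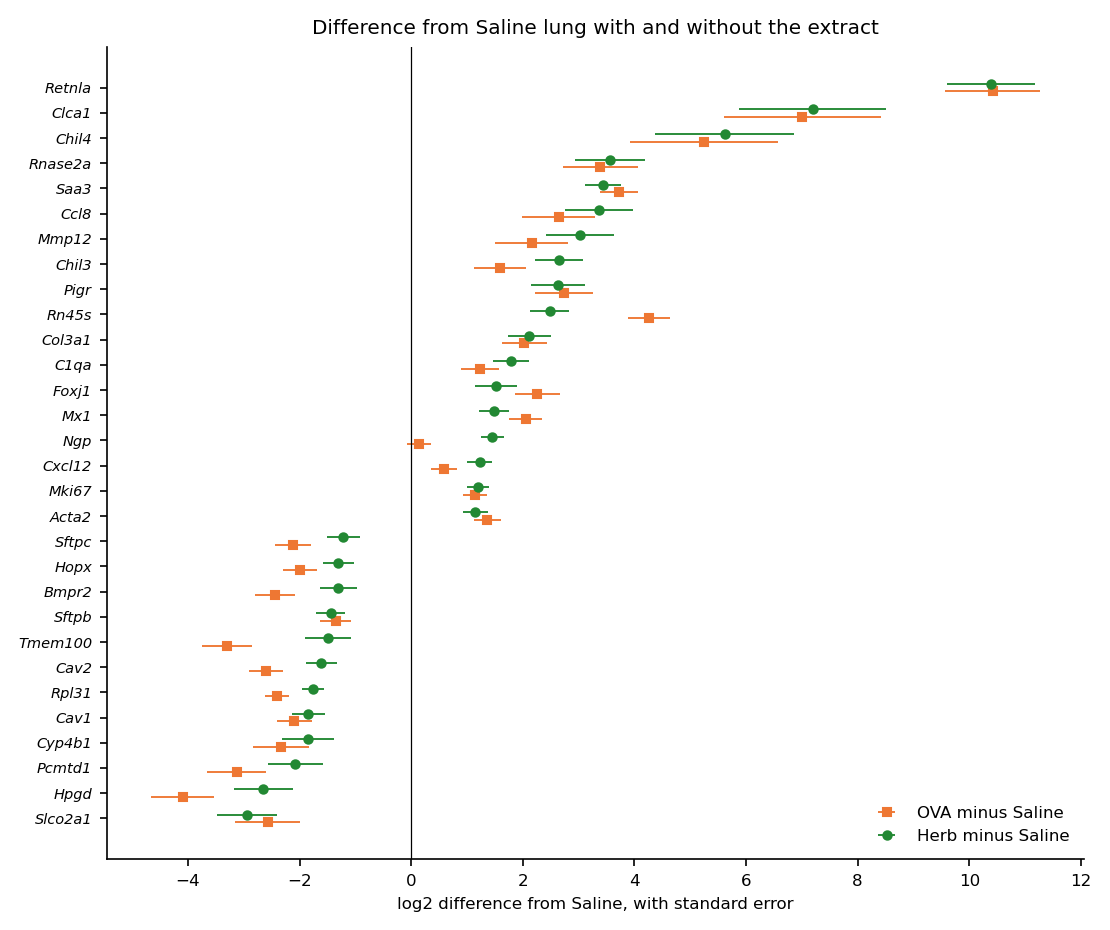
Log2 differences from Saline with standard errors (x axis) of 30 named genes (y axis), for OVA (squares) and Herb (circles). Both series share the same 3 Saline libraries. Retnla stands at 10.42 in OVA and 10.39 in Herb, and Hpgd at -4.09 in OVA and -2.65 in Herb.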

How the data were processed

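Per the labels and the study's methods, poly(A) RNA of lung tissue was sequenced as stranded pairs, trimmed with cutadapt 1.10, aligned to mm10 with Hisat2, and assembled and quantified with StringTie 1.3.3b and ballgown. The authors deposited 1 table of FPKM per transcript and library (66548 rows, of which 31605 are assembled models without a symbol). Because FPKM are not counts, no count model was used. Rows were summed per symbol, libraries rescaled to a common 75th percentile over genes averaging 1 FPKM or more, and log2(FPKM + 1) fitted in limma 3.58.1 (R 4.3.3; lmFit, eBayes with trend) with all 10 libraries and 3 group means. A fold change on this scale understates low genes. Labels do not say more about replicates than that they are separate samples, so p-values measure the spread between these samples. Groups came from the labels.

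Genes named were the 8 largest positive and 8 largest negative differences among non-overlapping calls, up to 3 called members of each of 33 lists, and 26 fixed genes; 69 of these 101 had a promoter entry. A further gene is not reported here. Lists and rule were chosen with earlier results of these data known. Alternatives covered scaling, pseudocount, filter, feature, libraries, moderation, replicate block and leaving out each library. Adding neighbouring assembled models was chosen after seeing the data. Positions are from GRCm38.p6. The fit was tested on simulated data. Python 3.11.15, pandas 2.3.3 and Biopython 1.88 were used.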

Additional observations from a re-analysis of the deposited data

Results flagged for a closer look

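In 5 of the 101 genes named, 1 of the 4 Herb libraries passed Dixon's test of the gap over the range on the log2 scale. Chance passes this test in about 1 of 20 groups, so 5 of 101 is about the number that chance gives. For S100a9 and Acaa1b the gap is the whole range whatever the size of the value, because the other libraries were listed at 0. The libraries were Herb replicate 2 for S100a9 (51.9 FPKM, the others listed at 0), Herb replicate 4 for Hist1h1b (9.65 FPKM), Herb replicate 1 for Mbd4 (1.05 FPKM), Herb replicate 3 for Nfil3 (5.69 FPKM) and Herb replicate 1 for Acaa1b (0.0304 FPKM, the others listed at 0).

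For 1 named gene the test of Herb against OVA showed that the difference from Saline was not the same with and without the extract. Ngp was higher in Herb than in OVA by 1.31 on the log2 scale (adjusted p = 0.0329).

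The assembled models without a symbol, which the comparisons of genes do not use, also differed from the controls. Of 17801 models with a mean of at least 1 FPKM, 1347 were called in Herb vs. Saline (limma, adjusted p under 0.05), 1195 higher and 152 lower. They carry no gene name in the table.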

How the results depend on the processing

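The number of genes called, 1758, was 2921 with values as deposited, 841 after quantile normalization, 779 with a mean of at least 5 FPKM, 1058 over transcript rows, 579 with the screen of the study (a log2 difference of at least 1 and an unadjusted p under 0.05) and between 117 and 1655 with 1 library left out. Samples that share a replicate number did not deviate together (r from -0.000581 to 0.0319 between Saline and Herb), so the numbers were not taken to pair animals. With the replicate number as a block, 601 genes were called, and Herb replicate 4, which has no partner, does not enter the contrast in that fit. The other 8 settings moved the count by less than 1.5 times, to between 1354 and 2585.

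Of the 87 called genes named, 82 kept their sign under every setting, 46 were called under all 5 scalings (35 lost the call after quantile normalization, and 11 to 14 under each other scaling) and 12 with each library left out. With neighbouring assembled models, which can belong to another gene, Ccl5 (0.60), Gata2 (0.34), Myl12b (1.41), Rps29 (0.49) and Tpm2 (-0.15) changed sign. The cause was not tested. The uncalled Kit turned to -0.28 as deposited, -0.0295 with the percentile over transcript rows, -0.0627 with the median of ratios and -0.25 without Herb replicate 2, and ranged from there to 0.30 with other libraries left out. S100a8 turned to -0.35, -0.0802 and -0.12 under those 3 scalings, -0.70 with neighbouring models, and to between -0.63 (without Saline replicate 2) and 0.66 with 1 library left out. Vegfa turned to 0.11 with the block, to 0.35 with neighbouring models and to between -0.97 and 0.11 with 1 library left out. The median of the cell cycle list turned to -0.70 over genes of at least 5 FPKM, where few members remain. The files used here give no counts, so the depth behind single FPKM values is unknown.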
